A study of Mus musculus with 2 samples.

Results

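Nanog, Dppa3, Gdf3, Apobec1 and Slc2a3 lie side by side on mouse chromosome 6, and the H3K4me3 peaks across these 5 neighbouring genes are described here. The genes were chosen by name, as 5 of the 20560 protein-coding genes analysed. That Nanog differs between the mm10 and mm9 lists was known when they were chosen. All peaks between 20 kb before the first gene and 20 kb after the last were taken, which is chromosome 6 from 122557792 to 122822363 on mm10 (264.6 kb) and from 122507810 to 122771658 on mm9 (263.8 kb). The mark was profiled by chromatin immunoprecipitation and sequencing (ChIP-seq) in 1 group: 2 biological replicates of the E14TG2a.4 line, embryonic stem cells from a male mouse of strain 129/Ola, whose labels give an embryonic age of 3.5 days and name no treatment. Both replicates are the same line, so they speak for 1 line only. Each replicate has its own peak list on mm10, and a pooled list and a replicated list, the latter built from both replicate lists and the pooled one, complete the 4 mm10 lists. The 3 mm9 lists are 1 per replicate and 1 pooled. The signal value is the number the authors gave each peak. Its definition and the sequencing depth are unknown, so values are used only to describe peaks.

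Trimethylation of lysine 4 on histone H3 is laid down around active and poised transcription starts, usually as a narrow band and at some cell identity genes as a broad domain. Nanog encodes a homeodomain factor that sustains the undifferentiated state of embryonic stem cells. Dppa3, also called Stella, encodes a chromatin protein of the germ line, the early embryo and naive stem cells. Gdf3 encodes a ligand of the TGF-beta superfamily. Apobec1 encodes the cytidine deaminase that edits apolipoprotein B messenger RNA, and Slc2a3 encodes the glucose transporter GLUT3. In stem cells the octamer factor Oct4 and Sox2 are known to bind together just upstream of Nanog.

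Promoter sequences, credited to RefSeq on GRCm38.p6 (the mm10 assembly), were matched for 2 of the 5 genes, Nanog and Apobec1. They are shown because the peaks described below cover both windows whole. Each is the 250 bases before an annotated start, written 5′ to 3′ along the gene, and capitals mark matches to the motifs searched on both strands. The Nanog window is chr6:122707239-122707488 on the plus strand. The Apobec1 window is chr6:122602445-122602694 on the minus strand, before a start at 122602444 that lies inside the gene's outermost 5′ end.

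Nanog: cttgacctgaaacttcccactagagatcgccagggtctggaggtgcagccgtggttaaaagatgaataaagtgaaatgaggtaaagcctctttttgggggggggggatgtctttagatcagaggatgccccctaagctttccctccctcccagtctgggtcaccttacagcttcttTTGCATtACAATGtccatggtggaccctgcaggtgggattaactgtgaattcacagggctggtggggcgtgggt
Apobec1: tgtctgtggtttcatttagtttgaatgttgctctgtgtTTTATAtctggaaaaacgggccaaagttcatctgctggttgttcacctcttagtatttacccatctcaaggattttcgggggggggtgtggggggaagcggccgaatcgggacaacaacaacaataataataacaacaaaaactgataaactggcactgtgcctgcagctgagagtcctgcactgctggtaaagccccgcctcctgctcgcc

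In the Nanog window the short octamer motif ATGCAA was found on the minus strand at −74, counted from the start, and the Sox motif CATTGT on the minus strand at −67, with a single base between them. The full octamer ATGCAAAT, which contains the short one, and TATAAA were not in this window. In the Apobec1 window only TATAAA was found, on the minus strand at −212. Of 32851 promoter windows of this length, 9.46% held ATGCAA, 10.7% held CATTGT and 1.40% held both. TATAAA was in 12.4% and the full octamer in 1.60%. These matches describe letters in a window, and binding was not measured here.

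All 5 genes had a peak within 1 kb of their 5′ end in the replicated mm10 list, where 68.4% of all genes did. The same 5 of 5 were found in the list of replicate 1 (68.7% of all genes), in that of replicate 2 (68.6%) and in the mm10 pooled list (69.8%). With a share this high among all genes, the count of 5 alone says little about these genes. Their peaks differed widely in height and width, from a low, short peak at Apobec1 to a domain of over 11 kb at Nanog. Neighbouring peaks with a gap under 1 kb were counted as 1 domain, and a gene's signal was that of the highest peak at its 5′ end. At all 5 genes the signal in the replicated list was the same as in the pooled mm10 list, so it can lie above the values of both replicates.

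**Figure D1:**
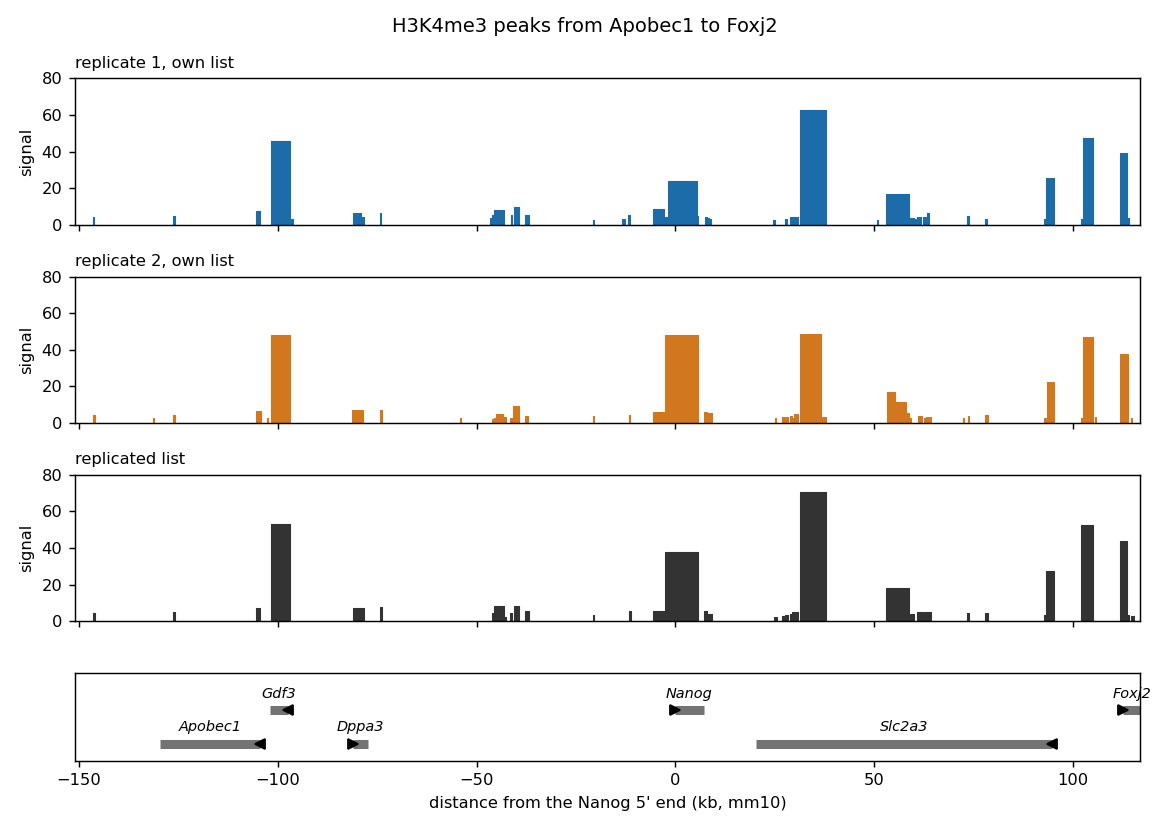
Peaks of the locus in the lists of replicate 1, replicate 2 and the replicated list, drawn over their extent (x axis, kb from the Nanog 5′ end on mm10) at their signal value (y axis). Grey bars are genes and arrowheads their 5′ ends. The tallest peak lies inside Slc2a3, and the peak at the Nanog start is 23.9 in replicate 1 and 47.9 in replicate 2.

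Peaks covered 22.8% of the locus in the replicated list (37 peaks), against 2.30% of chromosome 6 between its first and last gene or peak, a ratio of 9.92. The replicates covered 21.3% (45 peaks) and 21.5% (47 peaks) of the locus, against 2.13% and 2.11% of the chromosome. Coverage was thus similar in both replicates and far above that of the chromosome. The locus was drawn around 5 genes that all have a promoter peak, whereas the chromosome share takes in stretches without genes. No like stretch around other genes was measured, so whether the ratio is particular to this locus was not tested. The mm9 lists gave smaller ratios to the chromosome, with 26.9% against 4.70% in the pooled list (5.72), 24.1% against 3.77% in replicate 1 and 23.4% against 3.85% in replicate 2. Of the replicate 1 peaks in the locus 86.7% overlapped one of replicate 2 by at least 1 bp, and 83.0% of the replicate 2 peaks overlapped one of replicate 1. When at least 0.5 of each peak had to overlap, these shares were 64.4% and 61.7%. Few of the peaks were high: 30 of the 37 had a signal under 10, and the other 7 lay between 18.2 and 70.8. Only 5 of the 37 overlapped the 1 kb around a 5′ end of the 5 genes (median signal 27.6), 16 lay inside one of the genes further from its 5′ end (median 4.45, highest 70.8) and 16 lay outside them (median 4.96, highest 52.5).

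The Nanog promoter carried the widest domain of the 5. Nanog lies at 122707489 to 122714633 on the plus strand of mm10. Its domain measured 11454 bp in replicate 1 and 11376 bp in replicate 2 (mean 11415 ± 55.2, SD, n = 2), and 11443 bp in the replicated list. The median over the 14061 genes with a promoter peak was 2428 bp, and 98.1% of them had a narrower domain. The domain ran from 122701892 to 122713334, that is, from 5597 bp upstream of the Nanog 5′ end to 5845 bp downstream of it, and together with the next peak covered 82.2% of the gene. Among genes with a promoter peak the median share of the gene covered was 10.6%, and 94.8% had a smaller share than Nanog.

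The domain was made of a tall peak over the start and a low one upstream. In the replicated list the tall peak spanned 122704812 to 122713334 (8523 bp) with its summit 419 bp downstream of the 5′ end, inside the gene. The upstream peak spanned 122701892 to 122704653 (2762 bp), had a signal of 5.74 and had its summit at −5203 bp. Replicate 1 divided the same stretch into 4 peaks and replicate 2 into 2. Without joining, the Nanog width was 8523 bp, and with gaps of up to 3 kb joined it was 14757 bp, so the width depends on this rule.

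The height at Nanog differed between the replicates more than that at the other 4 promoters. The signal at its start was 23.9 in replicate 1 and 47.9 in replicate 2, a mean of 35.9 ± 17.0 (SD, n = 2), with 37.7 in the replicated list. Replicate 2 was 2.00-fold higher, whereas the ratio of replicate 2 to replicate 1 had a median of 0.964 over the 13936 genes marked in both lists and lay between 0.729 and 1.19 for the middle 90% of them. Only 25 of the 13936 genes, Nanog included, had a ratio as high. Among the 10951 genes with a signal over 20 in either replicate there were 14. In replicate 1, 28.1% of genes with a promoter peak had a lower signal than Nanog, and in replicate 2, 70.5% had. The rank of the Nanog promoter by signal is therefore not fixed by these 2 replicates, while its joined width differed between them by less than 100 bp. The single peak over the start, before joining, was 7192 bp wide in replicate 1 and 8497 bp in replicate 2.

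**Figure D2:**
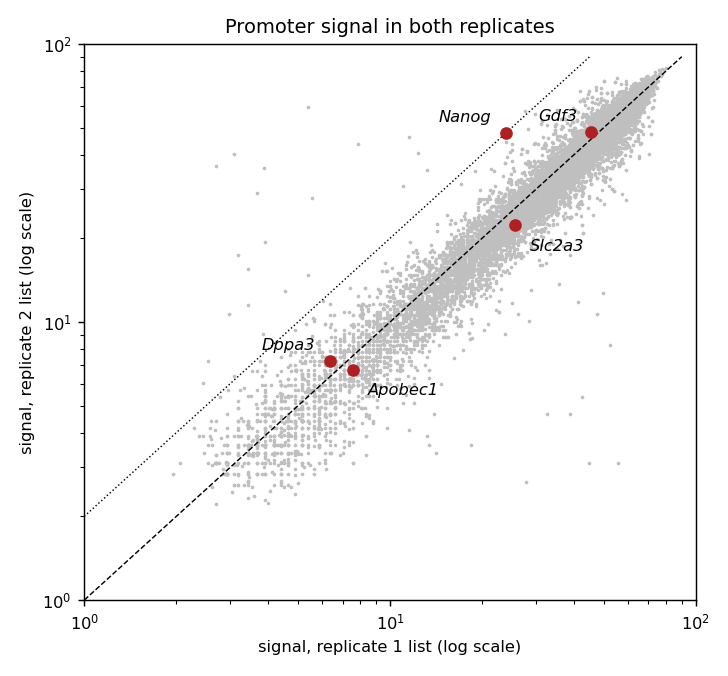
Signal at the 5′ end in replicate 1 (x axis) against replicate 2 (y axis), both on log scales, for the 13936 genes marked in both lists (grey) and the 5 genes of the locus (red). The dashed line marks equal signal and the dotted line a ratio of 2, on which Nanog falls at 2.00.

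The replicates differed around Nanog in both directions. Of the 37 replicated peaks, 29 had a peak of their own in both replicate lists, with ratios of replicate 2 to replicate 1 between 0.429 and 2.00 and a median of 0.934. The highest was that of the peak at the Nanog start. The next 3 were also near Nanog: a peak 20.3 kb upstream (122686832 to 122687163) at 1.53, and peaks starting at 122714605 and 122715452, at and just past the 3′ end of the gene, at 1.46 and 1.46. Several other peaks upstream of the start were higher in replicate 1. The low peak in the Nanog domain had a signal of 8.56 in replicate 1 and 5.83 in replicate 2, a ratio of 0.680. In the group of 6 low peaks between Dppa3 and Nanog, described below, 5 could be compared and had ratios of 0.429 to 0.909. The remaining one, at 122664394 to 122664953, went the other way, with a peak of 3.36 in replicate 2 and none in replicate 1. The promoters of the other 4 genes had ratios between 0.867 and 1.14.

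Gdf3 had the highest promoter signal of the 5 genes, with less difference between replicates. Gdf3 lies at 122605403 to 122610087 on the minus strand. The signal was 45.6 in replicate 1 and 48.2 in replicate 2 (mean 46.9 ± 1.83, SD, n = 2) and 53.2 in the replicated list, above the median of 43.1 over all genes with a promoter peak. Its peak in the replicated list spanned 122605810 to 122610650 (4841 bp), from 563 bp upstream to 4277 bp downstream of the 5′ end, and covered 91.3% of this short gene. The summit lay 313 bp inside the gene. The domain was 5402 bp wide in replicate 1 and 5892 bp in replicate 2, since a further low peak was joined to it there, upstream in replicate 1 and beyond the 3′ end in replicate 2. Of all genes with a promoter peak, 85.6% had a narrower domain than the replicated one.

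Dppa3 carried a low and moderately wide peak. Dppa3 lies at 122626424 to 122630271 on the plus strand. The signal was 6.36 in replicate 1 and 7.25 in replicate 2 (mean 6.81 ± 0.631, SD, n = 2) and 7.33 in the replicated list, and 6.48% of genes with a promoter peak had a lower one. The domain measured 2853 and 2763 bp in the replicates (mean 2808 ± 63.6, SD, n = 2) and 2983 bp in the replicated list, wider than 64.7% of them. It ran from 115 bp upstream to 2867 bp downstream of the 5′ end and covered 74.5% of the gene. Dppa3 thus had a width above the median of all genes with a promoter peak and a signal far below it. A second peak of like height lay 6.8 kb past the Dppa3 start, at 122633239 to 122633604, with a signal of 7.62.

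Apobec1, next to Gdf3, had the narrowest peak of the 5. Apobec1 lies at 122577792 to 122603024 on the minus strand. The signal was 7.59 in replicate 1 and 6.74 in replicate 2 (mean 7.16 ± 0.601, SD, n = 2), and 7.19 in the replicated list. Its peak spanned 122601991 to 122603077 (1087 bp) and covered 6.27% of the gene. Of the genes with a promoter peak, 6.29% had a lower signal and 9.09% a narrower domain. With gaps of up to 3 kb joined, Apobec1 and Gdf3 shared 1 domain of 8660 bp.

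Slc2a3 was marked at its far 5′ end and more strongly deep inside the gene. Slc2a3 lies at 122727809 to 122802363 on the minus strand. At the 5′ end the signal was 25.7 in replicate 1 and 22.3 in replicate 2 (mean 24.0 ± 2.41, SD, n = 2), and 27.6 in the replicated list, with a domain of 2418 bp. The highest peak of the whole locus was inside the gene, at 122738757 to 122745549 (6793 bp), between 10948 and 17740 bp from its 3′ end. Its signal was 62.6 in replicate 1, 48.4 in replicate 2 (mean 55.5 ± 10.1, SD, n = 2) and 70.8 in the replicated list. Of all peaks in that list 98.9% were lower, as were 94.5% of the signals at gene 5′ ends. With 4 low peaks joined to it, the inner domain measured 11245 bp, close to that at Nanog. The mm10 gene table gives only the outer end of each gene, so the inner peak counts for no promoter on that build.

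Transcript starts in the GENCODE vM1 annotation of mm9 placed several Slc2a3 starts in the matching stretch. There, 5 starts (transcripts 001 to 005) lay 14453 to 15111 bp from the 3′ end of the gene. All 5 fell in a region of the pooled mm9 list at 122685201 to 122696000 with a signal of 13.0, which spans 7374 to 18173 bp from the 3′ end, and in the replicates' own mm9 lists the regions there had signals of 17.0 and 14.6. The far start, transcript 008 at 122751658, had 11.9 in the pooled mm9 list, 14.1 in replicate 1 and 15.6 in replicate 2. On mm9 the far and inner starts were thus of similar height, while on mm10 the inner peak was the higher one in both replicates. A second inner domain, with no vM1 start of the gene in its mm9 counterpart, at 122760621 to 122771939 on mm10 (11319 bp), had a highest signal of 18.2, and on mm9 a region of the pooled list with a signal of 6.66 lay at the same distances from the 3′ end, 32774 to 44173 bp.

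Ordered by mean signal over the replicates, Gdf3 (46.9) came before Nanog (35.9), Slc2a3 at its far 5′ end (24.0), Apobec1 (7.16) and Dppa3 (6.81). The values of Gdf3 and Nanog overlapped between replicates, as did those of Nanog and Slc2a3, and those of Apobec1 and Dppa3. Slc2a3 and Apobec1 did not overlap. With 2 replicates of 1 group these are descriptions, and no test was made. By width the order was Nanog, Gdf3, Dppa3, Slc2a3 and Apobec1, with no overlap between neighbours.

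**Figure D3:**
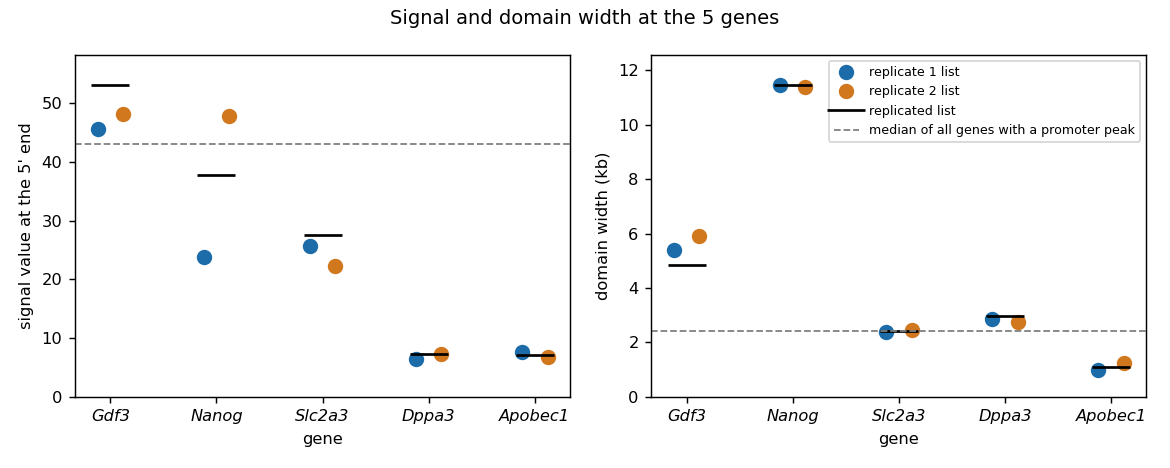
Signal at the 5′ end (left) and domain width in kb (right) of the 5 genes, as points for replicate 1 (blue) and replicate 2 (orange) and a bar for the replicated list. Dashed lines mark the medians of all genes with a promoter peak in the replicated list, 43.1 and 2428 bp. Nanog is split in signal and has nearly the same joined width in both replicates.

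Promoter CpG content, which is tied to H3K4me3 in most mammalian cells, differed among the genes. Classes were read from the mm9 sequence with 500-bp windows reaching from 1300 bp before to 200 bp after the outermost start. High-CpG promoters have a window whose ratio of observed to expected CpG is above 0.75 at over 55 percent GC, low-CpG promoters have no window over 0.48, and the rest are intermediate. Gdf3 (0.335), Dppa3 (0.395) and Nanog (0.467) were low, Apobec1 (0.533) was intermediate and the far start of Slc2a3 (0.995) was high. The 5 inner Slc2a3 starts, which share overlapping windows, were intermediate at 0.538 to 0.718.

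The share of genes with a promoter peak was 28.2% of 7600 low-CpG genes, 85.9% of intermediate ones and 96.2% of high ones. All 3 low-CpG members were among the 2144 marked, although a second Dppa3 start, at 122576771 on mm9, was intermediate (0.542). Within those 2144, 89.7% had a lower signal than Gdf3, 77.7% a lower one than Nanog and 25.2% a lower one than Dppa3. By width, 98.1% were narrower than Nanog, 89.2% narrower than Gdf3 and 77.3% narrower than Dppa3. Set beside genes of the same class in the replicated list, Gdf3 and Nanog were therefore high and all 3 were wide. The Nanog signal was 23.9 and 47.9 in the replicates, and its rank within the class was not taken for each. Apobec1 was low among intermediate promoters, of which 6.18% had a lower signal, and 13.1% of high-CpG promoters had a lower signal than the far end of Slc2a3.

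The interval between Dppa3 and Nanog, 77.2 kb on mm10 with no protein-coding gene, held 10 whole peaks in the replicated list, all with signals of 2.04 to 8.26. Peaks covered 16.8% of it in that list, 16.7% in replicate 1 and 15.4% in replicate 2. A group of 6 of them lay close together at 122661375 to 122670702, 35.0 to 44.3 kb past the Dppa3 start. The highest of the group, at 122666800 to 122668221, was 9.97 in replicate 1, 9.07 in replicate 2 and 8.26 in the replicated list, and ended 39.3 kb before the Nanog start. The peak of the group at 122664394 to 122664953 had a counterpart in replicate 2 only (3.36). The others were present in both replicates, and all were low.

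The last high peak without a gene start lay between Slc2a3 and Foxj2, a forkhead factor gene whose 5′ end falls in the flank of the locus. It spanned 122809525 to 122812712 (3188 bp), 7162 bp upstream of the far Slc2a3 end and 7472 bp before the Foxj2 start. Its signal was 47.4 in replicate 1 and 47.2 in replicate 2 (mean 47.3 ± 0.170, SD, n = 2), and 52.5 in the replicated list, close to that at Gdf3. Foxj2 itself had 39.2 and 37.6 in the replicates and 43.6 in the replicated list. On mm9 the counterpart of the high peak, at 122759201 to 122763200, had a signal of 13.1 in the pooled list and ended 444 bp before the 3′ end of Gm4485, a long noncoding gene. No start of a gene in either annotation used here lay within it.

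The second comparison set the mm10 lists beside the mm9 lists, which the authors made from the same 2 replicates and which hold broader regions in another format. Of the 5 genes, 4 had a region within 1 kb of a vM1 start in the pooled mm9 list, where 72.6% of all genes did. The same 4 of 5 were marked in the mm9 lists of replicate 1 (71.9% of all genes) and replicate 2 (71.4%). The gene without a region was Nanog in all 3 lists. Signals in the pooled mm9 list were 15.3 at Gdf3, 13.0 at Slc2a3, 7.90 at Apobec1 and 5.93 at Dppa3. The value at Slc2a3 belongs to its inner starts, since any vM1 start counts on mm9, whereas the mm10 value uses the far 5′ end only, so the order of the genes is not compared between builds.

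None of the 4 vM1 starts of Nanog, at 122657507, 122657583, 122657586 and 122657611 on mm9, had a region within 1 kb. In the pooled mm9 list the nearest ended 8307 bp upstream, the next began 24894 bp downstream, and the stretch between them, 122649201 to 122682400, was 33200 bp long. It was 29800 bp in replicate 1 and 15400 bp in replicate 2, where a region of signal 3.36 began at 122664601, at the 3′ end of the gene. The 33200-bp stretch of the pooled list was longer than 64.2% of the distances between neighbouring regions of chromosome 6, whose median was 18000 bp. In replicate 1 the stretch was longer than 59.2% of them (median 19600 bp). In replicate 2 it was longer than 40.9% and below their median of 24200 bp. Placed by distance from the Nanog start, the empty stretch took in the whole domain that all 4 mm10 lists show.

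**Figure D4:**
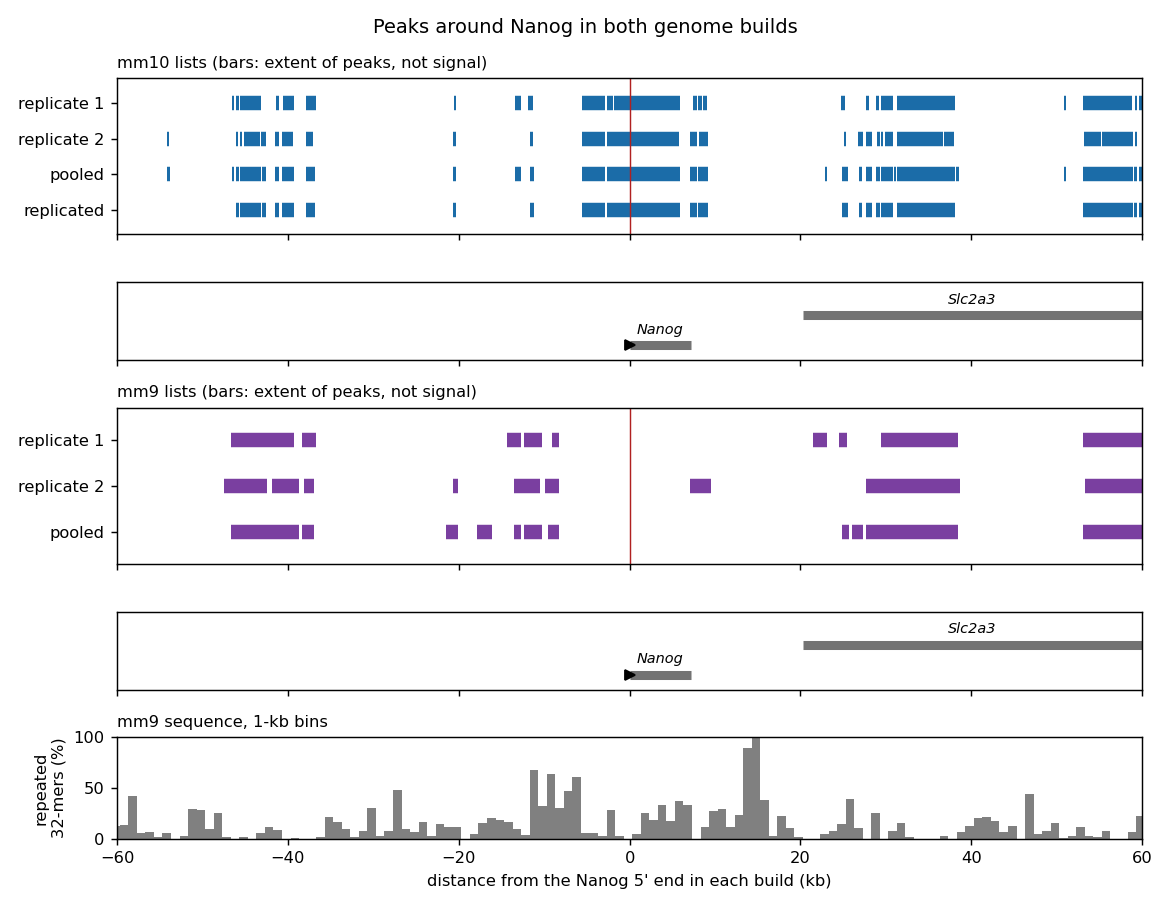
Peaks within 60 kb of the Nanog 5′ end in the 4 mm10 lists (blue) and the 3 mm9 lists (purple), by distance from the 5′ end in each build (kb), with bars for extent and not for signal, above the percentage of repeated 32-mers in 1-kb bins of mm9. The red line is the Nanog start, which lies in a domain in each mm10 list and in none of the mm9 regions.

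A missing mm9 region was rare at this height. Of the 8122 genes with a signal at or above that of Nanog in the replicated mm10 list, 115 (1.42%) had no region in the pooled mm9 list and 108 had none in any of the 3. Of the 215 that were also at least as wide as Nanog, 3 had none in any of the 3, Nanog itself, Rest and Glo1. Rest encodes a repressor of neuronal genes and Glo1 a glyoxalase. Rest and Glo1 were picked out after their values were seen.

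Sequence repetition was measured on mm9 because reads that match several places are often handled apart. Positions were counted as repeated when their 32 bases recur elsewhere on the mm9 autosomes, X or Y. Sequence outside these chromosomes was not searched. The share was 12.9% over the locus, 23.8% over the Nanog gene and 22.0% over the empty stretch of the pooled list. Within 1 kb of the Nanog 5′ end, 0 of 2001 positions were repeated, and no base of the stretch was unknown. The starts that did have mm9 regions had 8.50% (Gdf3), 7.75% (Apobec1), 6.90% (Dppa3) and 2.50% (Slc2a3) repeated positions in the same window. Over wider stretches Nanog was not low. Within 5 kb of the 5′ end it had 13.7%, where the other 4 genes had between 7.88% and 15.6%, and over the gene body its 23.8% was above the 3.42% to 16.1% of the others. The part of repeated bases in the missing region was not tested, and the sources used here do not say how reads were mapped to mm9.

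The mm9 regions nearest to Nanog on its upstream side lay over pseudogenes, which are rich in repeated bases. Gm10420 (80.8% repeated) had a region with a signal of 5.26 in the pooled mm9 list and a peak of 5.32 in the replicated mm10 list. Gm10224 (81.8%) had a region of 7.81 in the pooled list, 10.3 in replicate 1 and 6.04 in replicate 2 on mm9. On mm10 no list had a peak within 1 kb of Gm10224. The pooled mm9 regions of the locus had a median of 4.96% repeated positions, with a highest value of 61.8% in the region at Gm10224. Builds thus differed at Nanog and at Gm10224 in opposite directions. Among the other pseudogenes, Gm4482 had a region of 5.87 in the pooled mm9 list and a peak only in the pooled mm10 list (3.02), and Gm8459 and Gm8460 had no peak within 1 kb in any mm10 list.

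Genes related to each member were examined in lists chosen by function, with the share of all genes above, 68.4%, as background. In the pluripotency network 16 of 18 genes had a promoter peak in the replicated list. Their signals had a median of 60.8 and their widths one of 8093 bp, beside 43.1 and 2428 bp over all genes with a promoter peak. Stat3 (71.6), which relays LIF signals, and Pou5f1 (69.4), which encodes Oct4, were the highest, and Nanog at 37.7 lay below this list's median in signal and above it in width. Esrrb and Nr5a2, nuclear receptor genes, had no peak at the 5′ end in the replicated list. Both had a region at a vM1 start in the pooled mm9 list, at 11.0 and 13.0. Calls on mm10 used only the outermost 5′ end and those on mm9 any vM1 start. Whether mm10 peaks lay at other starts of such genes was not examined.

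Among 9 TGF-beta ligands and partners related to Gdf3, 8 had a promoter peak (median 40.4). Nodal (64.4), a ligand of the same family, and the receptor gene Acvr2b (54.6) were the highest, and Gdf3 at 53.2 came just under Acvr2b. Inhba, an activin subunit gene, had none at its outermost 5′ end on mm10. With any vM1 start counted, it had a region of 15.3 in the pooled mm9 list. Of 4 other Dppa genes, named like Dppa3 for their expression in pluripotent cells, 3 were marked: Dppa4 (39.8) and Dppa2 (27.7) were the highest, and Dppa1 was not marked on either build. Dppa3 at 7.33 was below all 3.

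Of the genes related to Apobec1, Apobec3 (51.5) and Apobec2 (8.63) had a promoter peak, and Apobec4 and the editing cofactor gene A1cf had none on either build. Among 10 other glucose transporter genes 8 were marked (median 23.3), led by Slc2a1 (64.6) and Slc2a8 (49.2). Slc2a2 and Slc2a9 had no promoter peak on either build. The far start of Slc2a3 at 27.6 was above that median and its inner peak at 70.8 above Slc2a1. Markers of the labelled cell type, stem cells, stood apart from other markers by signal and not by the share with a peak. At 5 of 6 stem cell markers the signal was 47.0 to 69.4, Esrrb being the other. Promoter CpG content was not compared between these sets. Signals were 5.75 to 23.4 at the 5 of 7 fibroblast markers with a peak, 3.88 to 18.1 at 4 of 5 of primitive endoderm and 9.06 to 11.5 at 3 of 4 of trophectoderm. In the replicated list Nanog, Gdf3 and the far start of Slc2a3 lay above the range of these 3 other sets. Dppa3 and Apobec1 lay within the ranges of the fibroblast and primitive endoderm markers. In replicate 2 the far start of Slc2a3 and Thy1, the highest fibroblast marker, were both at 22.3. Col3a1, Acta2, Gata4 and Elf5 were the markers of other cell types without a peak at the 5′ end in the replicated list. Gata4 had a region of 9.10 at a vM1 start in the pooled mm9 list.

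The genes most like each member were found over the 13936 genes marked in both replicates, by the distance over log2 signal and log2 width in both lists, each in units of its SD. Nanog had no close match. Its nearest were Zfp13 and Zscan10, which share a domain and so a distance of 0.651 (signals of 25.7 and 31.9, widths of 9786 and 9603 bp), and Ndufa7 at 0.662. Gdf3 was nearest to Pip4k2b (0.073), Cdv3 (0.079) and Frat2 (0.106). Slc2a3 at its far end was nearest to Gdpd5 (0.065), Insyn2a (0.096) and Maged2 (0.104). Apobec1 was nearest to Amotl1 (0.107), Ankrd53 (0.197) and Trpc2 (0.203), and Dppa3 to Onecut3 (0.206), Pla2g4e (0.208) and Ccdc60 (0.222).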

How the data were processed

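H3K4me3 ChIP-seq peak lists of 2 biological replicates of 1 group were used as the authors deposited them: 4 on mm10 and 3 on mm9. Per the deposited file descriptions, each mm10 replicate list came from that replicate's alignments and 1 further file, with aligner and peak caller not given in the sources used here. All lists hold a deposited signal value per peak, which is the authors' own. The mm10 lists add a deposited score and the authors' −log10 of p and q, and the mm9 lists the authors' p-value and q-value. Edges of mm9 regions lie on a grid. Depth is unknown, so no intervals are given.

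Gene ends came from the RefSeq GRCm38.p6 table, with strand by name (18392 genes) or synonym (2168 genes) from GENCODE vM1, and 1327 of 21887 genes were left out. A gene was marked when a peak overlapped the window from 1 kb before to 1 kb after its 5′ end on mm10, or of any vM1 start on mm9. Coordinates were not converted between builds. No tests were made, as there is 1 group. Named genes are the 5 members, other genes starting in the locus, list genes without a peak, the top 2 per list and the 3 nearest genes per member. Not every gene the rule takes is reported here. The members and lists were chosen with earlier results of these data known. Promoter calls and widths were tested on simulated data. Python 3.11.15, numpy 2.4.6 and pandas 2.3.3 were used.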

Additional observations from a re-analysis of the deposited data

How the results depend on the processing

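All 5 genes kept a promoter peak in each replicate's own list, in the pooled mm10 list, with q under 1e-05, and with windows of 500 bp and 2 kb, while 4 of 5 had one in the pooled mm9 list with every vM1 start or the outermost one. The share of the locus under peaks, 22.79% in the replicated list, was 21.29% to 21.46% in the lists of single replicates, 24.42% in the pooled mm10 list and 21.95% with q under 1e-05. Values were set against those of the replicated list. Over these settings the change in signal of the 5 genes was within the SD of the 2 replicates in 26 of 30 comparisons. For domain width this held in 28 of 40. The signal count says little. In the pooled mm10 list, with q under 1e-05 and with either window, each signal equalled that of the replicated list. The 4 signals that moved were all in lists of single replicates. They were Gdf3 in both (45.6 and 48.19, against 53.2), Dppa3 in replicate 1 (6.362 against 7.333) and Slc2a3 in replicate 2 (22.28 against 27.61). The SD at Nanog is itself large (17.0), so a change within it says little there. With q under 1e-05 the Slc2a3 domain was 1948 bp in place of 2418 bp. Depth is unknown, so low peaks found in 1 replicate and not the other cannot be judged. No paired analysis was possible because there is 1 group.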

Other observations

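The Dppa3 promoter and the short peak 6.8 kb past it had the same signal within each replicate's list, 6.36 in replicate 1 and 7.25 in replicate 2, and 7.33 and 7.62 in the replicated list. Peaks far apart also had equal signals, such as 5.38 at 122661409 and 122695651 in replicate 1. In replicate 2 the peaks at 122575962 and 122666031 were both at 2.89. The match at Dppa3 therefore says little by itself. The only mm9 region touching the Nanog gene, in replicate 2 alone, began at 122664601 with a signal of 3.36, and the mm10 peaks at and just past the 3′ end of Nanog were also stronger in replicate 2 (6.22 against 4.28 and 5.70 against 3.91).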
